A study of Mus musculus with 6 samples.

Results

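The genes described here encode the integrin subunits and adaptor proteins that act at integrin tails inside the cell, 39 genes in all, of the 19937 genes measured. They were chosen by name: 18 alpha subunits, 8 beta subunits and 13 adaptors (the talins, the kindlins, integrin-linked kinase, the PINCH and parvin genes, vinculin and paxillin). All 39 had a probe set assigned to a single gene, and where a gene had 2 probe sets, as Itgad did, the brighter was used. RNA came from the region of the aorta, gonads and mesonephros (AGM) of mouse embryos of strain CD1, taken at E11.5, where E counts embryonic days. No allele, transgene or treatment is named for either population. After collagenase digestion, cells carrying CD31 (encoded by Pecam1) and lacking CD45 (encoded by Ptprc) and Ter119 were sorted, then split into cells with and without surface c-kit, which binds stem cell factor. Each of these populations, c-kit-positive and c-kit-negative, has 3 arrays, called biological replicates. How many embryos went into each is not stated in the sources used here, so the p-values rest on the spread between 6 arrays, which may be partly technical.

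Integrins are transmembrane receptors made of an alpha and a beta subunit, and the alpha subunit largely sets which ligand is bound: collagens, laminins, ligands with an RGD motif such as fibronectin and vitronectin, or counter-receptors on other cells. Talins and kindlins bind the beta tail and switch the receptor on, and the complex of integrin-linked kinase, PINCH and parvin, with vinculin and paxillin, links it to actin and to signalling. Endothelial cells use integrins to hold to their basement membrane, and blood progenitors need beta1 integrins to settle in the foetal liver.

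Kit, on whose protein the populations were divided, was higher in c-kit-positive cells (9.55 ± 0.03 against 8.22 ± 0.04, log2, SD, n = 3 each), and Pecam1 was present in both at 9.13 ± 0.16 and 10.02 ± 0.02. Ptprc, the gene of the leukocyte antigen sorted out, was at 8.52 ± 0.13 and 8.75 ± 0.60 in the same order. All levels in the text are RMA values on the log2 scale, so a difference of 1 is a doubling of signal, and they carry no detection call. Precision is limited by the small number of arrays.

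Several alpha subunits, the common beta subunit and 4 adaptors fell in c-kit-positive cells and Itga4 rose, while most of the 39 genes did not pass. In the limma fit over all genes, 12 of the 39 genes passed a Benjamini-Hochberg adjusted p of 0.05, beside 7.41% of all genes. Of these 11 fell and 1 rose, while 4.7% of all genes fell and 2.71% rose. The genes that fell were the alpha subunits Itga1, Itga2, Itga3, Itga5, Itga6 and Itga9, the common beta subunit Itgb1, and the adaptors Fermt2, Parva, Parvb and Pxn. The gene that rose was Itga4. The other 27 genes did not pass, with differences (c-kit-positive minus c-kit-negative, log2) between -1.05 and 0.26. By role, 6 of 18 alpha subunits fell and 1 rose, 1 of 8 beta subunits fell, and 4 of 13 adaptors fell. The median difference was -0.47 for alpha subunits, -0.25 for beta subunits and -0.41 for adaptors, against 0.07 over all genes. In 20 of the 39 genes the populations did not overlap, as in 26.8% of all genes. In 18 of them all c-kit-positive arrays lay below all c-kit-negative ones, which held for 10.6% of all genes, and in 2 all lay above, which held for 16.2%. With 1 array left out, between 8 and 11 of the 39 genes fell. In a linear model without variance moderation the calls of Itga2, Itga5, Itgb1 and Parva held, and those of Itga1, Itga3, Itga4, Itga6, Itga9, Fermt2, Parvb and Pxn did not (adjusted p from 0.0525 for Itga6 to 0.230 for Itga4).

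**Figure D1:**
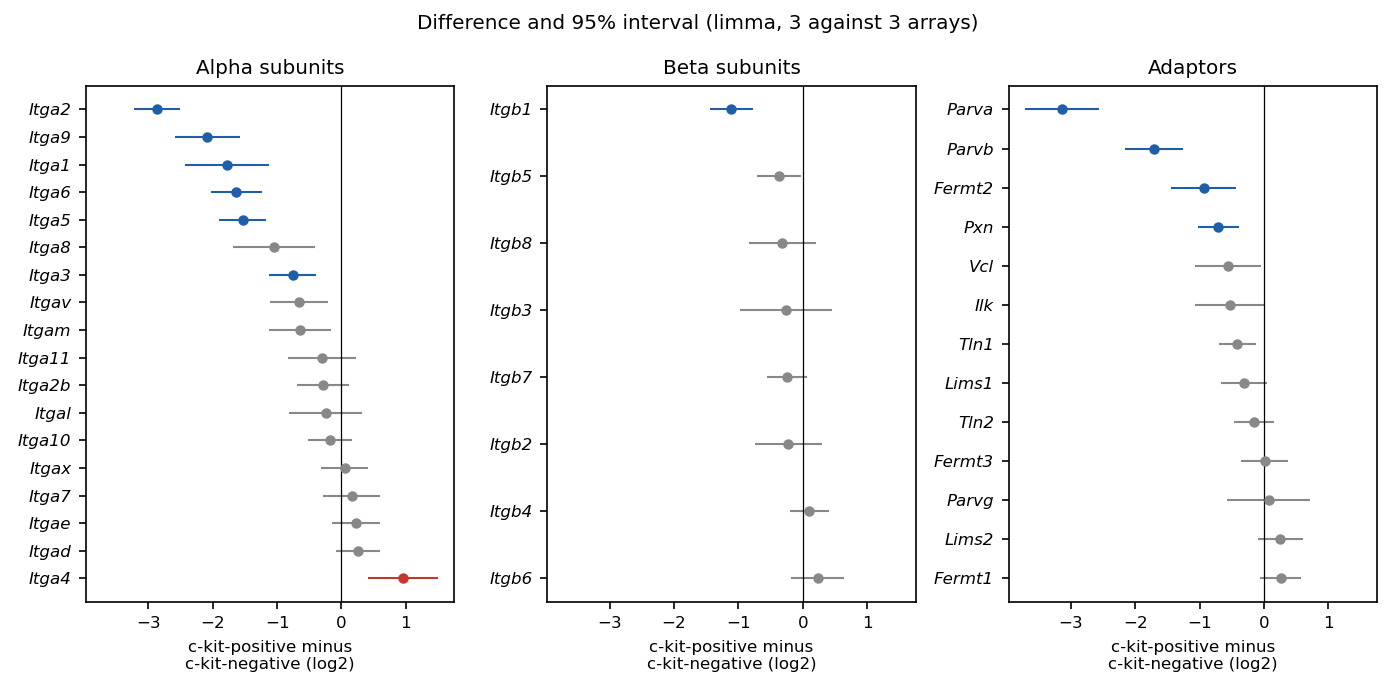
Difference between c-kit-positive and c-kit-negative cells (log2) for 18 alpha subunit, 8 beta subunit and 13 adaptor genes, with 95% intervals from limma over 3 against 3 arrays. Blue points fell, the red point rose and grey points did not pass an adjusted p of 0.05; Parva (-3.14) and Itga2 (-2.86) lie farthest to the left, and Itga4 (0.95) lies farthest to the right of the 11 genes above 0.

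On the same arrays all 15 pan-endothelial markers fell (median -2.31), with a summed signal, as log2, of 13.11 to 13.23 in c-kit-negative arrays and 10.46 to 10.56 in the others. Of 12 mesenchymal and smooth muscle markers 8 fell (median -1.54, summed signal 10.18 to 10.93 in c-kit-negative arrays against 8.95 to 9.07). Over all genes 4.7% fell and 2.71% rose. Of 15 primordial germ cell markers 14 rose (median 1.62, 12.23 to 12.69 against 13.44 to 13.67). Of 12 measured haematopoietic progenitor markers 5 rose (median 0.49, 11.13 to 11.49 against 11.47 to 11.64). Of 10 epithelial markers, Cdh1 among them, 2 rose and 0 fell (median 0.27, 9.10 to 9.64 against 9.70 to 9.99). The part of these cell types in the integrin differences was not tested. In bulk arrays fewer cells of a type and less RNA per cell cannot be told apart.

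Of the 4 collagen receptor subunits, Itga2, known from platelets, and Itga1, known from smooth muscle and vessels, fell. Itga2 was at 8.36, 8.50 and 8.51 in replicates 1, 2 and 3 of the c-kit-negative cells, and at 5.84, 5.56 and 5.39 in those of the c-kit-positive cells. The populations did not overlap, and every c-kit-positive array was more than 2 log2 units below every c-kit-negative one. The difference was -2.86 ± 0.16 (SE), or 7.27-fold lower (adjusted p = 3.55e-05, limma). Itga1, at 6.45, 7.20 and 6.60 in c-kit-negative and 4.82, 5.53 and 4.55 in c-kit-positive arrays, differed by -1.78 ± 0.28 (3.44-fold lower, adjusted p = 0.00728, limma). Its arrays did not overlap either, although they spread more within each population than those of Itga2. On the RefSeq annotation of GRCm38.p6, Itga1 and Itga2 are neighbours on chromosome 13 with 0 coding genes between them. The other collagen receptor subunits overlapped between populations. Itga10 was at 5.33, 5.60 and 5.52 against 5.17, 5.48 and 5.25 in c-kit-positive cells (difference -0.18), and Itga11 at 5.05, 4.84 and 5.69 against 5.02, 5.02 and 4.64 (difference -0.30).

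Of the 3 laminin receptor subunits, Itga6 and Itga3 fell. Itga6, which also serves as a surface marker of many stem cells, stood at 8.07, 8.33 and 8.06 in c-kit-negative and 6.46, 6.81 and 6.28 in c-kit-positive arrays. All values of one population lay beyond those of the other, and the difference was -1.63 ± 0.17 (SE, 3.10-fold lower, adjusted p = 0.000997, limma). Itga3, an epithelial laminin receptor, was at 6.31, 5.94 and 6.15 against 5.21, 5.35 and 5.56 in c-kit-positive cells. Those arrays did not overlap, but the fall of 1.69-fold (adjusted p = 0.0246, limma) was lost when c-kit-negative replicate 1 or 3, or c-kit-positive replicate 1 or 2, was left out, with adjusted p from 0.0722 to 0.0872 (limma). Itga7, the muscle laminin receptor, overlapped between populations at 4.89, 5.43 and 5.49 against 5.47, 5.60 and 5.21 in c-kit-positive cells, a difference of 0.16 (95% interval -0.29 to 0.60).

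Of the 4 subunits that bind RGD ligands, only Itga5, of the main fibronectin receptor, passed. It was at 7.69, 7.43 and 7.51 in c-kit-negative and 6.11, 5.76 and 6.16 in c-kit-positive arrays. The populations lay more than 1 log2 unit apart at their nearest, and the difference was -1.53 ± 0.16 (SE, 2.89-fold lower, adjusted p = 0.000871, limma). Itgav, the vitronectin receptor subunit that pairs with many beta chains, was at 7.88, 7.95 and 7.48 against 7.37, 6.80 and 7.16. Its populations did not overlap, yet the difference of -0.66 ± 0.20 (SE) did not pass (adjusted p = 0.0872, limma). Itga8, the nephronectin receptor of the developing kidney, was at 4.94, 5.91 and 5.96 against 4.33, 4.84 and 4.48, a difference of -1.05 ± 0.28 (SE, adjusted p = 0.0603, limma). Its populations did not overlap, but it was among the dimmest 50 percent of genes, where background limits what a fold change can show. Without c-kit-negative replicate 1, the lowest of its group, Itga8 passed, with a difference of -1.38 (adjusted p = 0.00937, limma). With any other single array left out it did not pass (adjusted p up to 0.174, limma).

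Itga2b (CD41), the platelet fibrinogen receptor subunit and an early surface marker of blood commitment in the embryo, did not pass. It was at 5.89, 6.18 and 6.50 in c-kit-negative and 5.83, 5.83 and 6.06 in c-kit-positive arrays. These ranges overlapped, the difference was -0.28 and its 95% interval ran from -0.69 to 0.12 (adjusted p = 0.419, limma). Itgb3, its partner, was at 7.01, 7.92 and 8.18 against 7.81, 7.06 and 7.47, a difference of -0.26 with an interval of -0.97 to 0.45. The platelet chemokine Pf4, not an integrin gene, was at 9.15, 10.15 and 10.84 in c-kit-negative and 7.69, 5.04 and 7.24 in c-kit-positive replicates 1, 2 and 3. In c-kit-negative cells Itga2b, Itgb3 and Pf4 were each lowest on replicate 1 and highest on replicate 3. In c-kit-positive cells Itgb3 and Pf4 were highest on replicate 1, but Itga2b on replicate 3. These orders over 3 arrays were not tested, and those of the other platelet markers are not given here. Of 7 measured megakaryocyte and platelet markers 3 fell, beside 4.7% of all genes, and Pf4 fell the most (-3.38). The 4 that did not pass differed by only -0.28 to 0.04. The median of the 7 was -0.28, with a summed signal of 9.93 to 11.49 in c-kit-negative arrays against 8.79 to 9.06. Their part in the Itga2b and Itgb3 values was not tested.

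The closely related subunits Itga4 and Itga9, which share ligands, differed in opposite directions. Itga4, which binds VCAM1 and fibronectin and retains blood progenitors in their niches, was at 7.52, 7.76 and 7.38 in c-kit-negative and 7.96, 8.69 and 8.86 in c-kit-positive arrays. Its populations did not overlap, with c-kit-positive replicate 1 nearest to the c-kit-negative arrays. The difference was 0.95 ± 0.24 (SE), or 1.93-fold higher (adjusted p = 0.0492, limma). This call was close to the threshold: it passed without c-kit-positive replicate 1 (adjusted p = 0.00989, limma) and did not pass without any other single array (adjusted p from 0.0788 to 0.142, limma) or with arrays centred on their medians (adjusted p = 0.0531, limma). Itga9, a receptor for tenascin and EMILIN1 needed for lymphatic valves, was at 7.62, 7.92 and 7.66 against 5.16, 5.98 and 5.82 in c-kit-positive cells. All c-kit-positive arrays were lower, by -2.08 ± 0.22 (SE, 4.24-fold, adjusted p = 0.001, limma).

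Set against each other within each array, which removes any scaling of the whole array, the log2 value of Itga4 minus that of Itga9 was -0.18 ± 0.09 in c-kit-negative and 2.85 ± 0.17 in c-kit-positive cells (SD, n = 3 each). The same contrast of Itga4 with Itga5, another fibronectin receptor subunit, was 0.01 ± 0.28 and 2.49 ± 0.57. Neither contrast overlapped between the populations. That follows from the genes themselves, since Itga4 was higher and Itga5 and Itga9 lower on every c-kit-positive array, so it adds no evidence. These contrasts describe unequal change and were not tested.

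The sequences before the start sites are given for the subunit that rose and for the 5 genes with the largest falls among those listed in RefSeq's promoter table. Each is the 250 bases before the start from that table (GRCm38.p6), which listed 27 of the 39 genes (Parva and Itga6 are not among them). Capitals mark matches, on either strand, to 5 motifs. Those of blood and vessel factors were CCGGAA for ETS factors, held by 12.03% of all 32851 such windows, TGTGGT for RUNX factors (14.05%) and AGATAA for GATA factors (9.99%). The others were GGGCGG for SP1 (32.7%) and TATAAA for the TATA box (12.4%). No matches overlapped in these windows. The windows are chr2:79255176-79255425 (plus strand) for Itga4, chr15:103366792-103367041 (minus strand) for Itga5, chr13:114932101-114932350 (minus strand) for Itga2, chr9:118711442-118711691 (plus strand) for Itga9, chr13:115101965-115102214 (minus strand) for Itga1 and chr15:84231793-84232042 (plus strand) for Parvb.
Itga4: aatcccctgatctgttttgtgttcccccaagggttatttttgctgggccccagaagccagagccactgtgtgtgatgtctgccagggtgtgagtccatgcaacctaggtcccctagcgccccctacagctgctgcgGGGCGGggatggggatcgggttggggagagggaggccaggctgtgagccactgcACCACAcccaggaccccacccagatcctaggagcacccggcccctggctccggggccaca
Itga5: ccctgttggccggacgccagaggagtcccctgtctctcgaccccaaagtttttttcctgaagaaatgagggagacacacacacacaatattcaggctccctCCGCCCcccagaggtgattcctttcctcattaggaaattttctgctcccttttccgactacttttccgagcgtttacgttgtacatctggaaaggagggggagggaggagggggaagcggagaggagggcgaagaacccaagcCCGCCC
Itga2: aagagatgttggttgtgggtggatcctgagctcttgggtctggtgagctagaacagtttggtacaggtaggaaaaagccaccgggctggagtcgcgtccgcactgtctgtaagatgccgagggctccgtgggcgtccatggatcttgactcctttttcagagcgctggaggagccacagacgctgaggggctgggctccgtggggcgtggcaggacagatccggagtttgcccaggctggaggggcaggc
Itga9: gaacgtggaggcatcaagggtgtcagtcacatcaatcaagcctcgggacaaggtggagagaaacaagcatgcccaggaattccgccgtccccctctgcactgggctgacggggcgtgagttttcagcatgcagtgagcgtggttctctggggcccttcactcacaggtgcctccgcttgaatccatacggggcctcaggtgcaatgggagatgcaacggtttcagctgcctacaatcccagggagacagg
Itga1: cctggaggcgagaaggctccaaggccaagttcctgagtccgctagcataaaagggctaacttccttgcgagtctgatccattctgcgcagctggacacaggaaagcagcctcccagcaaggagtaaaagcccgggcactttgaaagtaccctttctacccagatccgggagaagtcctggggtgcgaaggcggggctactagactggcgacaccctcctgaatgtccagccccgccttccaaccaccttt
Parvb: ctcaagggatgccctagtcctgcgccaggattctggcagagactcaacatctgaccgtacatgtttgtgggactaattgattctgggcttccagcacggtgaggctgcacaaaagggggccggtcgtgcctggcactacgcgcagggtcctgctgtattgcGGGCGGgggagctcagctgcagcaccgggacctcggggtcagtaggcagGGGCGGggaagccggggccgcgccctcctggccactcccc
The Itga4 window held 1 RUNX match, on the minus strand as ACCACA, and 1 SP1 match. The Itga5 and Parvb windows held 2 SP1 matches each and the Itga2, Itga9 and Itga1 windows none of the 5 motifs. None had a TATA match, and G and C made up 64.0% of the Itga4, 55.6% of the Itga5, 60.8% of the Itga2, 58.4% of the Itga9, 57.6% of the Itga1 and 65.2% of the Parvb window, against a median of 52.4% over all windows. A match here is a run of letters, not evidence that a factor binds.

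The leukocyte alpha subunits gave no call in either direction. Itgal, Itgam, Itgax, Itgad and Itgae, whose receptors serve adhesion and phagocytosis in white cells, differed by -0.24, -0.64, 0.05, 0.26 and 0.23. All were among the dimmest 50 percent of genes, and Itgax, Itgad and Itgae among the dimmest 30 percent. There background limits what a fold change can show, so the lack of a call does not show equal expression. Only Itgam, the alpha chain of the macrophage receptor Mac1, had populations that did not overlap, at 6.15, 5.62 and 5.54 in c-kit-negative and 5.38, 4.83 and 5.17 in c-kit-positive arrays (adjusted p = 0.118, limma). Of 11 macrophage markers 2 fell, beside 4.7% of all genes. All 11 had a lower mean in c-kit-positive cells, as 38.9% of all genes did (median -0.69, summed signal 10.89 to 11.64 in c-kit-negative arrays against 10.39 to 10.47). Their part in the Itgam values was not tested.

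Itgb1, the partner of 12 alpha subunits, was the only beta subunit to pass. It was at 10.24, 10.17 and 10.28 in c-kit-negative and 9.02, 9.00 and 9.34 in c-kit-positive arrays. The c-kit-negative arrays lay within a narrow band and above every c-kit-positive array, and the difference was -1.11 ± 0.14 (SE, 2.16-fold lower, adjusted p = 0.00269, limma). The other 7 beta subunits differed by -0.37 to 0.23. Itgb5, a vitronectin receptor chain, and Itgb7, which pairs with Itga4 and Itgae in lymphocytes, had populations that did not overlap (differences -0.37 and -0.24, adjusted p = 0.197 and 0.368, limma). Itgb7 was at 5.26, 5.52 and 5.28 in c-kit-negative and 5.19, 5.04 and 5.10 in c-kit-positive arrays. Itgb2, the common chain of the leukocyte integrins, differed by -0.23 with a 95% interval of -0.75 to 0.30. Itgb4, the chain of hemidesmosomes, was at 5.76, 5.79 and 5.75 against 5.94, 5.95 and 5.73, and Itgb6 and Itgb8, which serve the activation of TGF-beta, differed by 0.23 and -0.32.

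**Figure D2:**
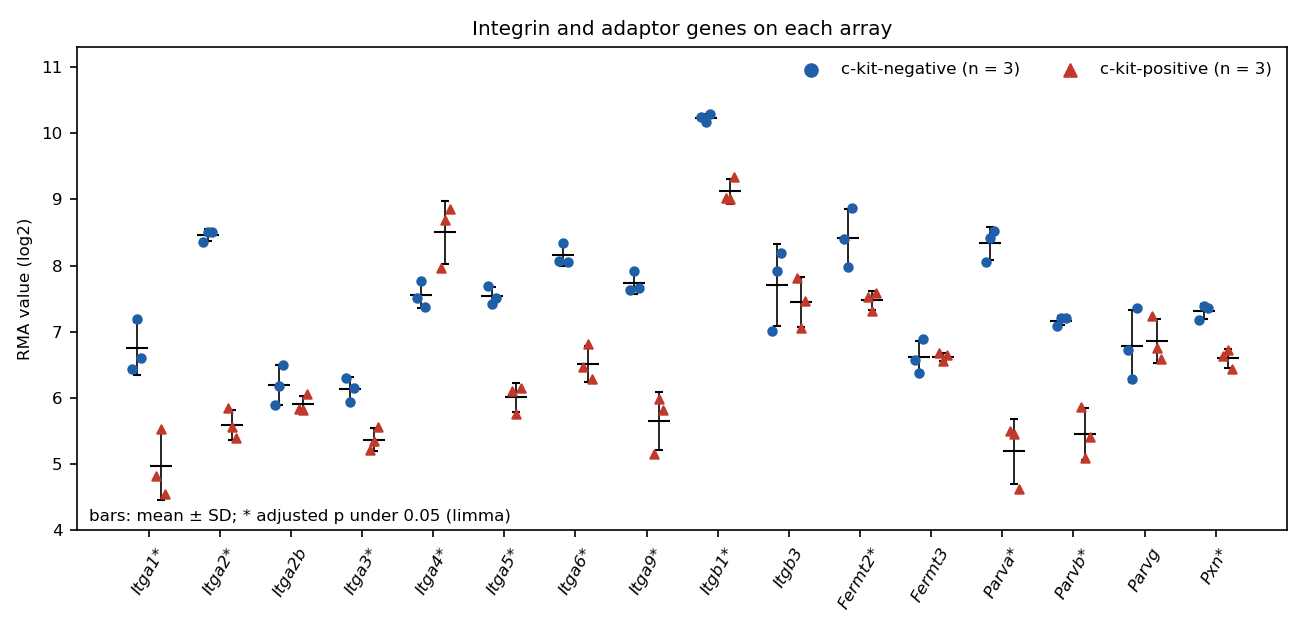
RMA values (log2) on each array for the 12 genes that passed (asterisk) and for Itga2b, Itgb3, Fermt3 and Parvg, with c-kit-negative arrays as circles, c-kit-positive arrays as triangles and bars for mean ± SD of 3 arrays. For Itga2 the circles lie at 8.36 to 8.51 and the triangles at 5.39 to 5.84; for Itga4 the triangles lie above the circles.

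The genes were also read as the 24 known heterodimers. In 6 pairs both genes fell, namely Itgb1 with Itga1, Itga2, Itga3, Itga5, Itga6 and Itga9. Itga4 and Itgb1 were the only pair called in opposite directions. Itga4 minus Itgb1 within each array was -2.72, -2.41 and -2.90 in c-kit-negative and -1.05, -0.31 and -0.48 in c-kit-positive replicates, 2.06 higher on average and without overlap. That lack of overlap follows from the 2 genes, whose arrays each did not overlap, in opposite directions. In 5 pairs only Itgb1 was called (with Itga7, Itga8, Itga10, Itga11 and Itgav). Of these, Itga7, Itga10 and Itgav minus Itgb1 were also higher in c-kit-positive cells without overlap, by 1.27, 0.93 and 0.45 on average. The contrasts of Itga8 and Itga11 overlapped. Where both genes fell, Itga3 minus Itgb1 was higher and those of Itga2, Itga5 and Itga9 lower, without overlap. Those of Itga1 and Itga6 overlapped. None of these contrasts was tested. In 2 only the alpha chain was called. These were Itga6 with Itgb4, whose within-array contrast was 2.38 ± 0.13 in c-kit-negative and 0.65 ± 0.19 in c-kit-positive cells, and Itga4 with Itgb7, at 2.20 ± 0.08 and 3.39 ± 0.54 (SD, n = 3 each). The remaining 10 pairs, of Itgav with its other beta chains, Itga2b with Itgb3, the leukocyte chains with Itgb2 and Itgae with Itgb7, had neither gene called. Pairs share subunits, so these counts are not independent of each other.

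**Figure D3:**
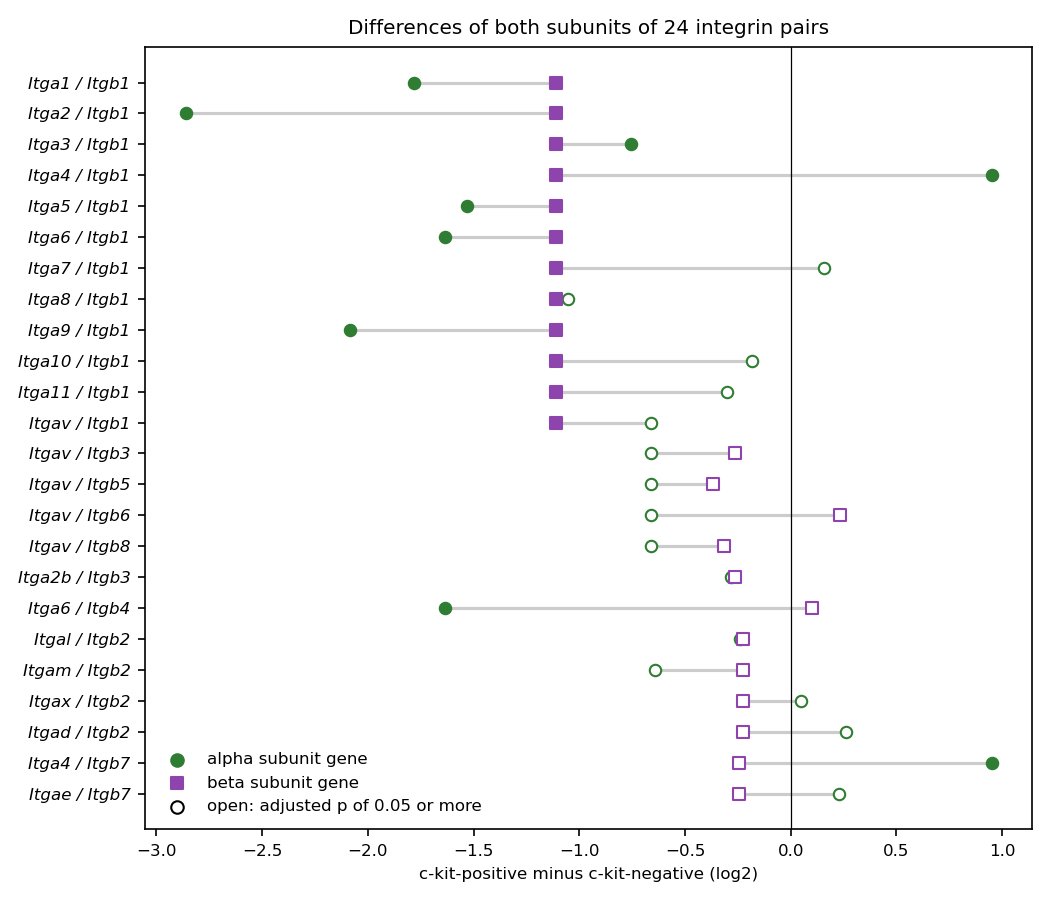
Differences between c-kit-positive and c-kit-negative cells (log2) of the alpha subunit gene (circle) and the beta subunit gene (square) of 24 integrin pairs, filled where the gene passed an adjusted p of 0.05 in limma. The Itgb1 square lies at -1.11 in each of its 12 pairs, and Itga4 (0.95) and Itga2 (-2.86) lie farthest from it.

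Among the adaptors, the parvins, which join integrin-linked kinase to actin, included the 2 largest falls, those of Parva and Parvb. Parva was at 8.06, 8.42 and 8.53 in c-kit-negative and 5.50, 5.46 and 4.63 in c-kit-positive arrays. Every c-kit-positive array was more than 2 log2 units lower, and the difference of -3.14 ± 0.25 (SE, 8.79-fold lower, adjusted p = 0.000213, limma) was the largest in size among the 39 genes. Parvb stood at 7.09, 7.21 and 7.20 against 5.87, 5.10 and 5.41, without overlap (-1.71 ± 0.20, SE, 3.26-fold lower, adjusted p = 0.0016, limma). Parvg, the parvin of blood cells and the neighbour of Parvb on chromosome 15 with 0 coding genes between them, was at 6.73, 6.28 and 7.36 against 7.23, 6.76 and 6.59. Its populations overlapped, and the 95% interval of its difference ran from -0.57 to 0.71. Within each array, Parva minus Parvg was 1.54 ± 0.52 in c-kit-negative and -1.66 ± 0.33 in c-kit-positive cells, and Parvb minus Parvg was 0.38 ± 0.54 and -1.40 ± 0.24 (SD, n = 3 each), neither overlapping and neither tested.

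The genes of the other proteins in the parvin complex did not pass. Ilk, which encodes integrin-linked kinase, was at 7.90, 7.81 and 7.93 in c-kit-negative and 6.90, 7.24 and 7.91 in c-kit-positive arrays. The third c-kit-positive array lay within the c-kit-negative range and the other two below it, and the difference of -0.53 ± 0.24 (SE) did not pass (adjusted p = 0.255, limma). Without that array the difference was -0.81 and passed (adjusted p = 0.0375, limma). With any other single array left out it did not pass (adjusted p up to 0.517, limma). Lims1 and Lims2, which encode the PINCH proteins, differed by -0.31 and 0.25.

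Of the kindlin genes, Fermt2 fell. Fermt2, the kindlin of most adherent cells, was at 8.40, 7.98 and 8.86 in c-kit-negative and 7.53, 7.31 and 7.59 in c-kit-positive arrays. These did not overlap, and the difference was -0.94 ± 0.22 (SE, 1.92-fold lower, adjusted p = 0.0396, limma). The call held without c-kit-negative replicate 2 and was lost without any other single array (adjusted p from 0.0809 to 0.113, limma). Fermt3, the kindlin of blood cells, was at 6.57, 6.38 and 6.88 against 6.67, 6.56 and 6.65, with a difference of 0.01 and a 95% interval of -0.35 to 0.38. Fermt2 minus Fermt3 within each array was 1.80 ± 0.19 and 0.85 ± 0.09 without overlap. The contrasts Tln1 minus Tln2 and Lims1 minus Lims2, of genes that were not called, did not overlap either (changes of -0.26 and -0.56). Fermt1, the epithelial kindlin, was at 3.61, 3.56 and 3.30 against 3.81, 3.66 and 3.77 (adjusted p = 0.351, limma).

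Talins, vinculin and paxillin act together at the cytoplasmic face of adhesions. Tln1, the talin of most cells, was at 7.67, 7.69 and 7.76 against 7.25, 7.37 and 7.27 in c-kit-positive cells, without overlap but short of the threshold (-0.41 ± 0.12, SE, adjusted p = 0.0937, limma), and Tln2 differed by -0.15. Pxn, encoding the scaffold paxillin, was at 7.18, 7.39 and 7.36 against 6.63, 6.72 and 6.44. Its arrays did not overlap and it was 1.64-fold lower (adjusted p = 0.0203, limma), a call lost without c-kit-negative replicate 2 or 3 or c-kit-positive replicate 1 or 3 (adjusted p from 0.0541 to 0.0700, limma). Vcl, encoding vinculin, was at 8.61, 8.85 and 8.93 against 7.87, 8.11 and 8.74 (adjusted p = 0.202, limma). As with Ilk, c-kit-positive replicate 3 lay among the c-kit-negative arrays, and without it the difference was -0.81 (adjusted p = 0.0417, limma). With any other single array left out Vcl did not pass (adjusted p up to 0.431, limma).

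Integrin ligands were followed in a list of their own. Of 28 measured ligand genes 12 fell, 1 rose and 15 did not pass (median -0.79), beside 4.7% and 2.71% of all genes. The most certain falls were of basement membrane genes: Lama4, the laminin chain of vessel walls, at 9.05 ± 0.18 in c-kit-negative cells against 5.02 ± 0.23 (SD, n = 3), the nidogen Nid1 (7.53-fold lower), the laminin chain Lamb1 (4.13-fold lower) and the type IV collagen chain Col4a1 (3.69-fold lower). The gene that rose was Cdh1, or E-cadherin, which is the ligand of the Itgae receptor and an adhesion molecule of epithelia and germ cells (7.79 ± 0.01 against 6.64 ± 0.19, adjusted p = 0.00216, limma). Fn1, or fibronectin, bound by both Itga4 and Itga5, was at 10.11, 10.23 and 9.93 in c-kit-negative and 9.22, 9.47 and 9.18 in c-kit-positive arrays (1.74-fold lower, adjusted p = 0.015, limma). Vcam1, a cell-surface ligand of Itga4, was at 6.12, 5.40 and 6.10 against 5.02, 5.06 and 5.14 (adjusted p = 0.0549, limma). Madcam1, another ligand gene of the list, was at 7.09, 6.75 and 7.18 against 6.51, 5.46 and 5.10 (2.50-fold lower, adjusted p = 0.0482, limma). Cdh1, Fn1, Vcam1 and Madcam1 were named after their values were seen.

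Downstream of the receptors, 8 of 32 measured genes of integrin signalling and focal adhesions fell and none rose (median -0.27), beside 4.7% and 2.71% of all genes, and with 1 array left out 4 to 5 fell. The clearest were Flna, the actin crosslinker filamin that competes with talin for beta tails (9.04 ± 0.07 in c-kit-negative cells against 7.32 ± 0.27, SD, n = 3, 3.30-fold lower), and Tgfb1i1, a relative of paxillin (2.99-fold lower). Tns2, a tensin, was 1.95-fold lower and Bcar1, a docking protein for adhesion signals, 2.07-fold lower. Fyn, a Src family kinase, and Dock1, Tns3 and Actn4 made up the rest. Of 17 integrin regulators 3 fell and none rose (median -0.10), against the same shares of all genes. These were Dab2, an endocytic adaptor for beta1 integrins (4.88-fold lower), and the tetraspanins Cd81 and Cd151, which associate with integrins (8.94 ± 0.37 against 10.05 ± 0.13 and 6.43 ± 0.47 against 7.43 ± 0.26, SD, n = 3). For these lists too, lower pan-endothelial markers (median -2.31) and mesenchymal and smooth muscle markers (median -1.54) stood beside the falls. Their part was not tested.

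**Figure D4:**
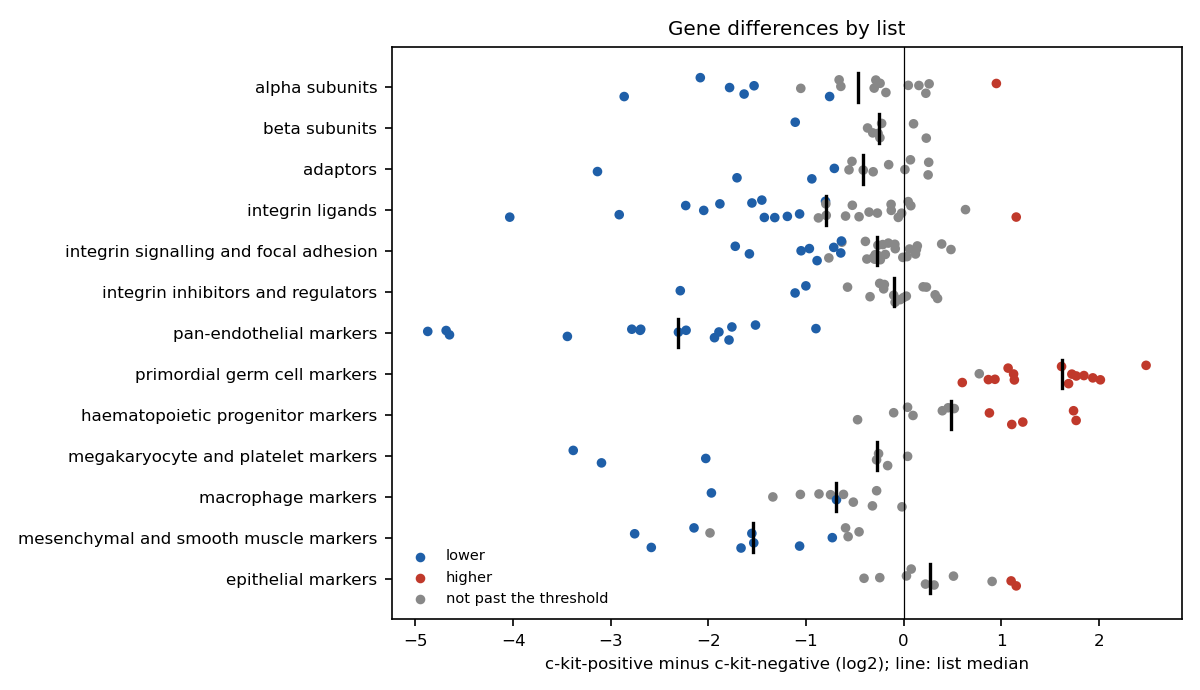
Differences between c-kit-positive and c-kit-negative cells (log2) of each measured gene, by list, with blue for genes that fell, red for genes that rose, grey for genes that did not pass and a line at the list median. Medians lie at -0.47 for alpha subunits, -0.79 for integrin ligands, -2.31 for pan-endothelial markers and 1.62 for primordial germ cell markers.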

How the data were processed

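Total RNA (5 ng per sample) was amplified with a NuGEN whole-transcript kit and labelled with biotin, per the labels' protocols, and hybridised with 1 array per sample. The values are log2 values that the authors made with RMA and deposited, per the submitters' processing notes, with version and settings not given in the sources used here. RMA makes the distributions of all arrays alike, and background can shrink the fold changes of genes with little signal. Of 34760 probe sets, 21640 were assigned to 1 gene symbol by the platform's annotation, several symbols went with 1321 and 11799 were not named. Each of the resulting 19937 genes kept its probe set with the highest mean over the 6 arrays.

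Populations were taken from the labels. limma 3.58.1 (under R 4.3.3) compared them in a single two-sided fit of all genes, using lmFit with eBayes and no filter on level, and p-values were adjusted by Benjamini-Hochberg over all genes. The fit was tested on simulated data. An exact permutation test of 3 against 3 arrays cannot go below 0.1 and was not used. Levels are mean ± SD, differences carry limma's SE. Contrasts within an array are descriptions without a test. The genes and lists were chosen with earlier results of these data known. All 39 genes are given, those past the threshold and the partners of such subunits by array, and from each related list up to 4 past the threshold with the smallest p. Some list members had no probe set of 1 gene and were not analysed here. Alternatives were other normalizations, filters, probe set rules, priors and thresholds, the replicate number as a block, and leaving out each array.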

Additional observations from a re-analysis of the deposited data

How the results depend on the processing

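Of the 12 calls among the 39 genes, those of Itga1, Itga2, Itga5, Itga6, Itga9, Itgb1, Parva and Parvb held at 0.05 with any single array left out, and with all arrays at an adjusted p under 0.01 (limma). At that stricter threshold 8 of the 39 genes were lower and 0 higher, 4 signalling genes and 1 regulator were lower. Centring each array on its median left 0 of the 39 genes higher. It called 2 ligand genes higher, as did quantile normalization (2) and leaving out the dimmest 50 percent of genes (2). A linear model without variance moderation, which has fewer degrees of freedom, called 4 of the 39 genes lower and 0 higher, and 5 ligand, 2 signalling and 1 regulator genes lower. Of the 8 calls that held otherwise, those of Itga1, Itga6, Itga9 and Parvb did not pass in it (adjusted p = 0.133, 0.0525, 0.0624 and 0.0656, linear model over all genes); of the others, Itga3, Itga4, Fermt2 and Pxn did not. With 1 array left out, the genes called numbered 8 to 11 lower and 0 to 1 higher, and the signalling genes 4 to 5 lower. Differences near 0 changed sign with 1 array left out for Itga7 (-0.034 to 0.268), Itgal (-0.51 to 0.0032), Itgax (-0.057 to 0.189), Fermt3 (-0.10 to 0.15) and Parvg (-0.18 to 0.35), none of them called. With the replicate number as a block 12 of the 39 genes were lower, Itga8 being the addition (adjusted p = 0.0262, limma), and 1 higher. The labels do not say whether the numbers pair the arrays. Deviations of same-numbered arrays correlated at 0.00071, 0.0239 and 0.059 across genes. Those of differently numbered arrays correlated at -0.0570 to 0.0359. So few arrays cannot settle whether they are paired. An intensity trend with a robust prior also added Itga8 (adjusted p = 0.0447, limma). Of the 39 genes, 5 were among the dimmest 30 percent of genes (Fermt1, Itgad, Itgae, Itgax and Itgb6). The dimmest 50 percent held 15, adding Itga7, Itga8, Itga10, Itga11, Itgal, Itgam, Itgb5, Itgb7, Itgb8 and Lims2. There background limits what a fold change can show.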
